A study of Mus musculus with 12 samples.

Results

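The genes described here are the clustered beta and gamma protocadherins of the mouse prefrontal cortex (PFC). They were taken as every protein-coding row of the count table whose gene symbol begins with Pcdhb or Pcdhg, which gave 23 of 41388 genes: the 22 beta genes Pcdhb1 to Pcdhb22, and 1 gamma row that the annotation names Pcdhgc4. PolyA-enriched RNA of the hand-dissected medial PFC was sequenced from male Swiss Webster mice aged 10 weeks. Conventionally raised (CON) mice carried their normal microbiota, germ-free (GF) mice had none, and exGF mice were born germ-free and colonized from postnatal day 21. Each group had 4 libraries, each made from RNA pooled from 2 to 3 animals, so that the p-values below measure the spread between pools. The columns called GFR1 to GFR4 are the exGF libraries, and which exGF sample each belongs to was not assumed.

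Clustered protocadherins are cadherin-type adhesion proteins of the neuronal surface. Each neuron transcribes a small, largely random set of them, chosen gene by gene through promoters that CTCF and cohesin bring to distant enhancers, and the proteins bind the same set on another membrane. Branches of 1 neuron carry the same set and separate, which is called self-avoidance, while cells with different sets can tell each other apart. A beta gene is a complete gene in a single exon with no constant part, whereas a gamma transcript joins 1 of many variable exons to constant exons that all gamma genes share, and so do the alpha genes of the same region with constant exons of their own. The C-type gamma genes are read less randomly than the others, and gamma protocadherins are known for keeping interneurons alive during development. The 3 comparisons of the groups ask whether the colonization of the mouse goes with a different level of these genes in the adult PFC.

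All 22 beta genes lie in a row on the plus strand of chromosome 18 in the GRCm38 build, from base 37264938 to base 37524479, and each has a row of its own. The gamma genes do not. The annotation holds 22 gamma genes between bases 37661793 and 37841873, and of these only Pcdhgc4, near the end of the cluster, has a row. All 21 others carry gene identifiers with numbers above the highest of the table (102132), the smallest being 102222, although 8 of them include transcripts with older identifiers. The alpha cluster shows the same arrangement, with a row for 1 of its 14 annotated genes, named Pcdha11. The constant exons are among the annotated exons of Pcdhgc4, so pairs from the constant exons of any gamma transcript are counted in its row. The row therefore does not hold Pcdhgc4 transcripts alone. Whether pairs from the variable exons of the other gamma genes are counted there too cannot be told apart from the counts. The row is called the gamma row here, and the Pcdha11 row is called the alpha row likewise. Of the 5596 exon bases of Pcdhgc4, 3477 are used by no other gamma gene. The antisense gene Gm26672 lies across the gamma locus with a row of its own, and since pairs were counted without regard to strand, reads of either over its exons cannot be told apart. The annotated exons of Pcdhgc4 share 0 bases with the exons of any other gene that has a row.

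Beta genes are close copies of each other, which bears on how well reads can be assigned to 1 of them. Between 0% and 22.5% of the 31-base words of a beta gene's exons occurred in another gene of the table, with the highest share in Pcdhb12. Of 100-base words, the length of a read, at most 7.73% did (Pcdhb21). Pcdhb21 and Pcdhb22 overlap over 455 exon bases, and per-length levels leave those bases out. Pairs that aligned to several places, which were not counted on any gene, made up 13.0% to 19.2% of a library.

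Counts on genes were 22757169 to 29134760 per library in CON, 13280926 to 23465074 in GF and 22702599 to 28615407 in exGF. Levels are given as CPM, the usual scaling of counts to a common library total, after TMM normalization over the 12 libraries, and are compared between genes as CPM per kb of exon that no other gene of the table uses. As a check of the tissue, 5 neuronal markers summed to 6184 to 7265 CPM in CON, 7264 to 8561 CPM in GF and 6572 to 8459 CPM in exGF. Of these 5, 0 were called in any comparison. In GF against CON 2 had an unadjusted p under 0.05 in edgeR, both higher in GF, beside 8.69% of all genes. There 1 had groups apart, beside 5.08% of all genes. The 5 excitatory markers summed to 5574 to 6593 CPM, while 5 choroid plexus markers stood at 2.61 to 14.2 CPM. Oligodendrocyte markers summed to 1139 to 1476 CPM in CON, 1834 to 2985 CPM in GF and 1101 to 1887 CPM in exGF, and 4 of the 6 were called higher in GF than in CON (0.251% of all genes tested were called). Meningeal markers summed to 75.6 to 99.6 CPM in CON, 48.5 to 61.0 CPM in GF and 55.9 to 72.0 CPM in exGF. Of these 5 markers 2 were called lower in GF than in CON. In that comparison 0.251% of all genes tested were called. In exGF against CON 0 of the 5 were called, beside 0.0696% of all genes. There 4 had an unadjusted p under 0.05 in edgeR, all lower, beside 5.33% of all genes. CON replicate 2 and GFR4 stood apart in markers of the striatum other than Drd1, with 5.37 and 6.50 CPM of Drd2 beside 0.446 to 1.74 CPM in the other 10 libraries. Adora2a stood at 9.72 and 9.16 CPM beside 1.36 to 3.93 CPM, and Ppp1r1b at 143 and 159 CPM beside 73.0 to 105 CPM. Drd1 set only GFR4 apart, at 21.7 CPM. It was at 16.6 CPM in CON replicate 2, close to GFR1 (16.4 CPM) and GF replicate 4 (16.3 CPM). Results that rest on these libraries are also given without them, leaving out both together having been chosen after the data were seen. The part of the neuronal, oligodendrocyte, meningeal and striatal markers in the results below was not tested.

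The beta genes as a group were expressed at a low level in every library. Their summed level was 103, 88.3, 124 and 123 CPM in the CON libraries, 103, 119, 108 and 114 CPM in GF and 116, 102, 111 and 94.9 CPM in exGF. The means were 109 ± 17.0 CPM in CON, 111 ± 7.12 CPM in GF and 106 ± 9.37 CPM in exGF (SD, n = 4 each). The 3 groups overlapped, and the lowest and the highest library of all were both CON.

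The gamma row stood far above them. It held 651, 614, 674 and 650 CPM in CON, 667, 640, 654 and 639 CPM in GF and 624, 676, 733 and 687 CPM in exGF. The means were 647 ± 25.1, 650 ± 13.2 and 680 ± 44.5 CPM (SD, n = 4 each), and again the groups overlapped, with GFR3 the highest library and CON replicate 2 the lowest. All 22 beta genes together came to 13.8% to 18.9% of the gamma row. Per length, the gamma row stood at 118 CPM per kb if all of its reads come from the exons of Pcdhgc4 and at 9.30 CPM per kb if they come from the 70891 exon bases of all gamma genes. The alpha row gave 36.8 and 4.84 CPM per kb in the same way. The summed beta genes stood at 1.19 CPM per kb of all their exons together. That was below the 9.30 and 4.84 CPM per kb of the gamma and alpha rows, which likewise divide by the exons of a whole cluster. The values of 118 and 36.8 CPM per kb divide by the exons of 1 gene, so the beta value is not compared with them.

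**Figure D1:**
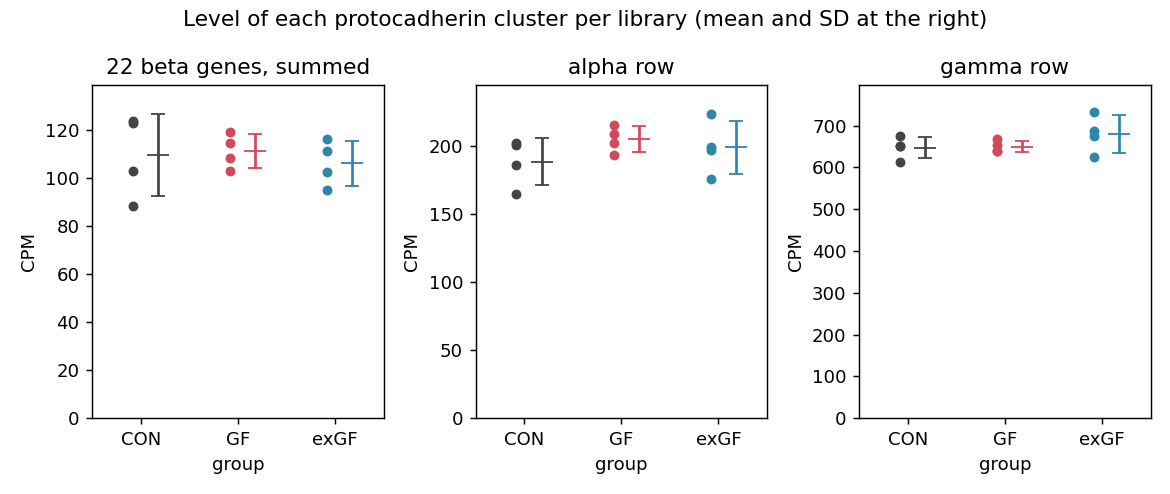
Level of the 22 beta genes summed, of the alpha row and of the gamma row in each of the 12 PFC libraries, in CPM on a linear axis from 0, with a point per library and the mean and SD (n = 4) beside them. The 3 groups overlap in each panel, with beta means of 109, 111 and 106 CPM and gamma row means of 647, 650 and 680 CPM in CON, GF and exGF.

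Within the beta cluster, levels per kb spanned 7.53 times among the 21 genes that were high enough to test. Pcdhb9 was the highest at 3.01 CPM per kb over the 12 libraries (range 1.95 to 4.00), followed by Pcdhb17 at 2.74 (2.05 to 3.57) and Pcdhb20 at 2.70 (2.25 to 3.22). Pcdhb6 was the lowest of the 21 at 0.400 CPM per kb (0.193 to 0.684), next to Pcdhb4 at 0.462 (0.361 to 0.623), and the median was 0.991. These proteins are all homophilic adhesion molecules of the same build, and no separate role is assigned here to a single one of them.

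Pcdhb1, the first gene of the cluster, was at the floor of detection. It had 1, 3, 0 and 3 counts in the CON libraries, 0, 1, 1 and 3 in the GF libraries and 0 in all 4 exGF libraries. A count of 0 allows up to 0.103 to 0.226 CPM at these depths (3 counts per library, counting error only), and no fold change is given for this gene. The next gene along, Pcdhb2, was measured at 0.639 to 3.98 CPM. It had the largest fitted coefficient of variation of the tested members in all 3 comparisons. Within exGF alone Pcdhb6 varied more, at 1.72 ± 0.616 CPM beside 1.77 ± 0.420 CPM for Pcdhb2 (SD, n = 4).

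The order of the beta genes was similar in the groups in broad terms and loose in detail. Spearman's rho between the groups' mean levels per kb was 0.939 for CON and GF, 0.955 for CON and exGF and 0.929 for GF and exGF, over the same 22 genes. Of the 21 neighbouring pairs in the order, 18 differed by no more than the SD of their difference within libraries, and only 2 kept their order in all 12 libraries: Pcdhb20 above Pcdhb12, and Pcdhb6 above Pcdhb1. Pcdhb9, Pcdhb17 and Pcdhb20 at the top did not differ beyond this spread. Pcdhb17, Pcdhb20, Pcdhb9, Pcdhb19 and Pcdhb3 together took 41.7% of all beta counts on average (38.7% to 45.0% over the libraries). Across the 21 tested genes the level per kb ran with neither position in the cluster (rho 0.11), exon length (rho -0.25) nor GC content (rho 0.20) to any large extent.

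**Figure D2:**
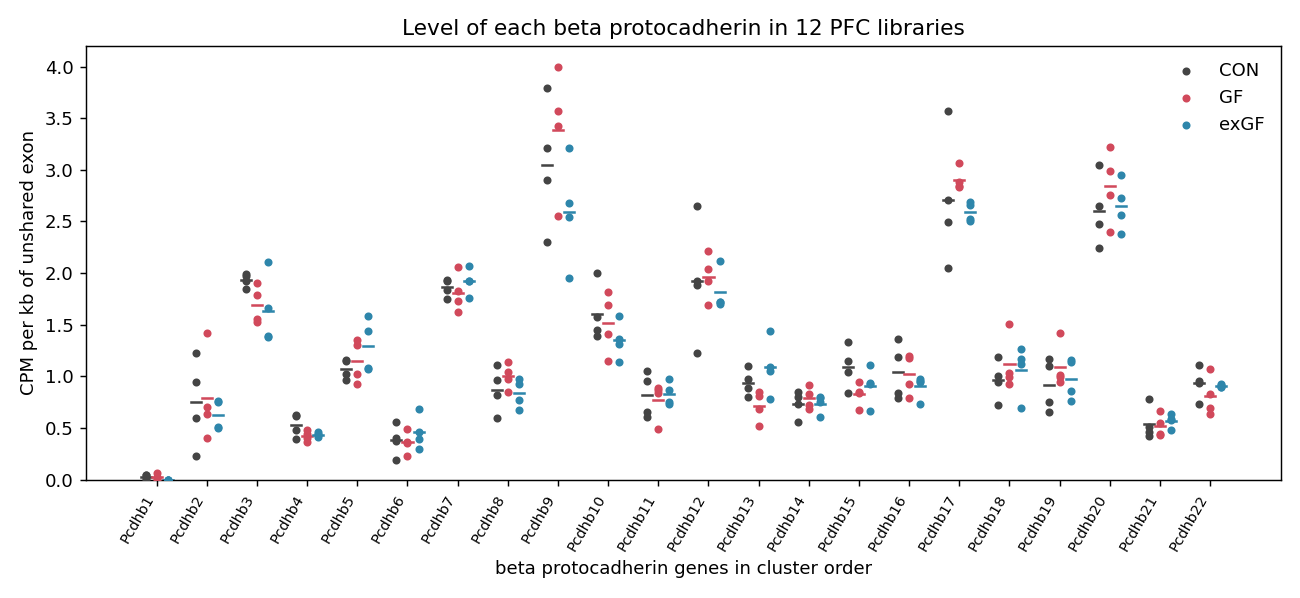
CPM per kb of unshared exon (linear axis) of each of the 22 beta genes in the order of the cluster, with a point per library and a bar for the mean of the 4 libraries of CON, GF and exGF. Pcdhb9, Pcdhb17 and Pcdhb20 are the highest in all 3 groups, Pcdhb1 lies at or near 0, and the groups overlap at every gene except Pcdhb17, where the 4 exGF points lie under the 4 GF points.

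Neither the beta genes nor the gamma row passed the test between GF and CON. Of the 23 members 22 passed the filter on low counts and were tested, and edgeR's quasi-likelihood test called 0 at a Benjamini-Hochberg adjusted p under 0.1, while it called 0.251% of all 15542 genes tested. None had an unadjusted p under 0.05, against 8.69% of all genes, and DESeq2 and limma-voom called 0 members too. The GF and CON libraries overlapped at all 22 members, where 5.08% of all genes had groups apart. In tissue RNA, fewer cells of a type and less RNA per cell cannot be told apart. Of the 21 beta genes, 10 had a fitted log2 fold change above 0 and 11 below (48.3% of all genes lay below), with a median of -0.03 (all genes 0.01) and a range of -0.40 to 0.25.

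The beta gene with the smallest p in GF against CON was Pcdhb15. Its level was 2.91, 2.34, 3.20 and 3.73 CPM in the CON libraries and 2.38, 1.88, 2.36 and 2.64 CPM in the GF libraries, 3.05 ± 0.579 against 2.32 ± 0.318 CPM (SD, n = 4). GF replicates 1, 3 and 4 lay above CON replicate 2, so the groups overlapped. The other CON libraries all lay above every GF library, and CON replicate 2 is one of those high in striatal markers. The log2 fold change of -0.40 (SE 0.21) had an adjusted p of 0.619 in edgeR. Leaving out 1 library at a time, it ran from -0.51 without CON replicate 2 to -0.29 without CON replicate 4. Without CON replicate 2 the adjusted p of Pcdhb15 was 0.596 in edgeR. Pcdhb13 came next with 2.95, 3.28, 4.09 and 3.62 CPM in CON and 1.93, 3.13, 3.01 and 2.53 CPM in GF, a log2 fold change of -0.38 (SE 0.20) and an adjusted p of 0.630. Only GF replicate 2 and GF replicate 3 reached into the CON range. Pcdhb3 had a log2 fold change of -0.19 (SE 0.13) and Pcdhb4 of -0.32 (SE 0.25), with adjusted p of 0.722 and 0.753 in edgeR. At both genes CON replicate 2 was the only CON library within the GF range. The value of Pcdhb4 ran from -0.44 without CON replicate 2 to -0.23 without CON replicate 3. At Pcdhb3 the 4 CON libraries were close together (7.54, 6.99, 7.29 and 7.46 CPM) and the GF libraries spread from 5.80 to 7.21 CPM.

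How much of a change these libraries could have missed is given by the intervals. For 21 of the 22 tested members the 95% interval of the fold change between GF and CON excluded both a 2-fold rise and a 2-fold fall, and for 12 it lay within 1.5-fold either way. The exception to the first was Pcdhb2, with an interval on the log2 scale of -0.86 to 1.03. The gamma row had the tightest interval, -0.14 to 0.15 around a log2 fold change of 0.01 (SE 0.07), with an adjusted p of 0.988 in edgeR. The sign of the beta median rested on single libraries: it was -0.13 without GF replicate 2, -0.12 without CON replicate 2, 0.12 without CON replicate 4 and 0.06 without GF replicate 1, and the number of beta genes below 0 went from 8 to 15 of 21.

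In exGF against CON, too, no member passed, with 0 of 22 tested members called by edgeR and 0 by DESeq2 and limma-voom, where 0.0696% of all 15813 genes tested were called. No member had an unadjusted p under 0.05, against 5.33% of all genes, and at none were the libraries of the groups apart, against 3.31% of all genes. The beta median was -0.05 (all genes -0.01), 9 beta genes were above 0 and 12 below (52.1% of all genes lay below), and the values ran from -0.28 to 0.26. The median was 0.04 without CON replicate 3, 0.01 without CON replicate 4 and 0.02 without GFR4, and -0.11 without CON replicate 2. Without both libraries high in striatal markers (CON replicate 2 and GFR4) it was -0.04 and 0 members were called.

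Pcdhb3 had the smallest p here as well as a place among the first 4 in GF against CON, and both comparisons use the same CON libraries. Its exGF libraries held 6.29, 5.22, 7.98 and 5.28 CPM, 6.19 ± 1.29 against 7.32 ± 0.244 CPM in CON (SD, n = 4). GFR3 lay above every CON library and the other 3 exGF libraries below all of them. The log2 fold change of -0.25 (SE 0.15) had an adjusted p of 0.952 in edgeR. The next 3 beta genes were Pcdhb10 with -0.26 (SE 0.17), Pcdhb5 with 0.26 (SE 0.17) and Pcdhb9 with -0.24 (SE 0.17), at adjusted p of 0.952, 0.952 and 0.963. At Pcdhb5, GFR1 and GFR3 (5.59 and 5.08 CPM) stood above the 4 CON libraries (4.10, 3.41, 3.61 and 4.07 CPM), and GFR2 and GFR4 lay among them. Intervals excluded a 2-fold change either way for 21 of the 22 members, again with Pcdhb2 as the exception (-1.10 to 0.56), and lay within 1.5-fold for 13. The gamma row had a log2 fold change of 0.06 (SE 0.08) with an interval of -0.10 to 0.23 and an adjusted p of 0.977.

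Between exGF and GF, 0 of 22 tested members were called by edgeR, DESeq2 or limma-voom, and edgeR called 0 of all 15569 genes, a share of 0%. At an unadjusted p under 0.05 stood 2 members, Pcdhb13 (higher in exGF) and Pcdhb9 (lower in exGF), against 6.65% of all genes. The beta median was -0.08 (all genes -0.0047), with 9 beta genes above 0 and 12 below (51.3% of all genes lay below) and a range of -0.39 to 0.59. Without GF replicate 2 the median was 0.04, and without GFR4 it was 0.02.

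Pcdhb13 gave the widest difference of the 3 comparisons. It was at 1.93, 3.13, 3.01 and 2.53 CPM in the GF libraries and at 3.89, 5.35, 4.06 and 2.89 CPM in exGF, 2.65 ± 0.544 against 4.05 ± 1.01 CPM (SD, n = 4). GFR1, GFR2 and GFR3 lay above every GF library and GFR4 among them, and GFR2 was the highest of all. The log2 fold change was 0.59 (SE 0.22), with an interval of 0.11 to 1.07, an unadjusted p of 0.0198 and an adjusted p of 0.736 in edgeR. Leaving out 1 library at a time, the log2 fold change ran from 0.43 without GFR2 to 0.72 without GFR4, which was high in striatal markers. Without GFR4 the adjusted p was 0.505 in edgeR. Without GFR2 or without GF replicate 1 the unadjusted p was no longer under 0.05. Beside this, the exGF mean of Pcdhb13 differed from the CON mean by 0.20 (SE 0.20) on the log2 scale.

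Pcdhb9, the highest beta gene per length, was at 7.80, 10.5, 10.9 and 12.2 CPM in GF and 9.82, 5.96, 8.19 and 7.76 CPM in exGF. GFR1, GFR3 and GF replicate 1 kept the groups overlapping, and the log2 fold change of -0.39 (SE 0.17) had an unadjusted p of 0.0398 and an adjusted p of 0.739 in edgeR. The unadjusted p of Pcdhb9 stayed under 0.05 without GF replicate 1 or without GFR1, and did not without any 1 of the other 6 libraries. Pcdhb17 was the only tested member with groups apart, and it was so in exGF against GF alone, where 3.32% of all genes had groups apart. Its GF libraries held 14.3, 13.2, 13.4 and 13.3 CPM and its exGF libraries 12.5, 11.7, 12.4 and 11.8 CPM, so that every exGF library lay below every GF library, while the CON libraries (11.6, 9.55, 16.6 and 12.6 CPM) spanned both. The difference was small, -0.16 (SE 0.10) on the log2 scale, with an adjusted p of 0.764 in edgeR. Pcdhb8 had a log2 fold change of -0.27 (SE 0.19) and an adjusted p of 0.787. Intervals excluded a 2-fold change either way for 19 of the 22 members, the exceptions being Pcdhb2, Pcdhb6 and Pcdhb13, and lay within 1.5-fold for 16. The gamma row had a log2 fold change of 0.07 (SE 0.07) with an interval of -0.09 to 0.22 and an adjusted p of 0.855; after a correction for exon length and GC content it was -0.0043.

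**Figure D3:**
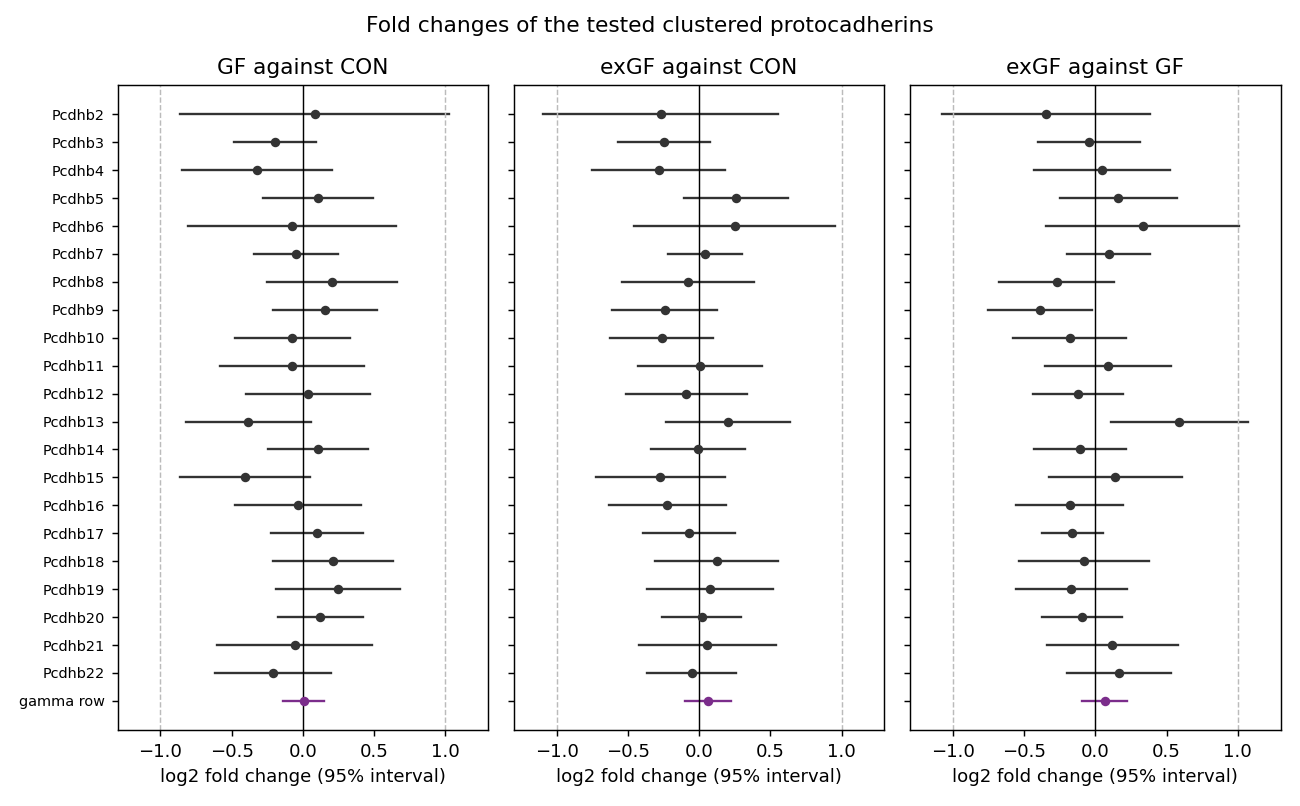
Fitted log2 fold change (point) and 95% interval (line) of the 21 tested beta genes and the gamma row in GF against CON, exGF against CON and exGF against GF, from edgeR; dashed lines mark a 2-fold change. All intervals cross 0 except those of Pcdhb13 and Pcdhb9 in exGF against GF, and the gamma row has the shortest interval in each panel.

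The precision behind these intervals was close to that of other genes of the same abundance. The median biological coefficient of variation of the beta genes was 17.4% in GF against CON, 17.9% in exGF against CON and 15.8% in exGF against GF, beside 16.7%, 16.3% and 16.2% in 4477, 4186 and 4274 other genes of the same abundance range. The gamma row varied by 8.08%, 9.17% and 8.70%. Pcdhb2 was the most variable, with 0.639 CPM in CON replicate 2 and 3.44 CPM in CON replicate 3. The beta differences had a median absolute log2 fold change of 0.11, 0.12 and 0.16 beside 0.16, 0.14 and 0.14 in the other genes. Spearman's rho of the fold changes with position in the cluster was 0.15, 0.29 and 0.09 over 21 genes in GF against CON, exGF against CON and exGF against GF. With exon length it was 0.13, 0.42 and 0.16, and with GC content -0.22, -0.45 and -0.12.

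The alpha row, the remaining clustered protocadherins, was not called either. It was at 188 ± 17.1 CPM in CON, 205 ± 9.51 CPM in GF and 199 ± 19.7 CPM in exGF (SD, n = 4). The log2 fold change was 0.12 (SE 0.08) in GF against CON, 0.07 (SE 0.09) in exGF against CON and -0.04 (SE 0.09) in exGF against GF, with adjusted p of 0.721, 0.977 and 0.928 in edgeR.

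Genes that act on the clusters and with their proteins were read from lists. Among 24 genes of promoter choice and chromatin (CTCF, cohesin and its loaders, Smchd1, Setdb1 and DNA methyltransferases among them), 0 were called by edgeR in any comparison, and the median log2 fold change was 0.02 in GF against CON, 0.05 in exGF against CON and 0.02 in exGF against GF. The smallest p of the list in GF against CON belonged to Pds5b, a cohesin cofactor, at 118 ± 20.5 CPM in GF and 98.6 ± 11.3 CPM in CON (SD, n = 4), with a log2 fold change of 0.26 (SE 0.12) and an adjusted p of 0.570. Ctcf, whose protein anchors the promoters, was the single gene of the list with groups apart in GF against CON, 1 of 24 where 5.08% of all genes had groups apart. It was chosen for mention after its values were seen. Its means were 69.3 ± 4.96 CPM in GF and 60.8 ± 5.21 CPM in CON (SD, n = 4), a log2 fold change of 0.19 (SE 0.09) at an adjusted p of 0.585.

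Of 25 intracellular partners and proteases of the clustered protocadherins, such as the kinases Ptk2 and Ptk2b, the WAVE complex and gamma-secretase, 0 were called in any comparison. Pdcd10, which binds protocadherin tails, had the smallest p of them in GF against CON, with a log2 fold change of 0.31 (SE 0.15) and an adjusted p of 0.570 in edgeR. Among 12 protocadherins outside the clusters 0 were called, and Pcdh8, an activity-regulated protocadherin of synapses, had a log2 fold change of -0.27 (SE 0.12) in GF against CON and an adjusted p of 0.554. Among 16 classical cadherins and catenins 0 were called as well. Cdh13, a cadherin held to the membrane by a lipid anchor, was at 122 ± 7.69 CPM in CON, 93.1 ± 18.6 CPM in GF and 97.8 ± 12.7 CPM in exGF (SD, n = 4). The GF and the exGF libraries lay below every CON library, the log2 fold changes being -0.39 (SE 0.13) and -0.33 (SE 0.10) against the same CON libraries, with adjusted p of 0.357 and 0.615 in edgeR. In each of these comparisons 1 of the 16 had groups apart, where 5.08% of all genes did in GF against CON and 3.31% in exGF against CON.

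The genes around the clusters on chromosome 18 were read to see whether the region as a whole differed. Taken were 15 neighbouring protein-coding genes whose symbols do not begin with Pcdha, Pcdhb or Pcdhg. Of these 12 had a row and 11 were tested, and 0 were called in any comparison. What the genes without a row encode was not checked. Taf7, a subunit of the general transcription factor TFIID that lies between the beta and gamma genes, had the smallest p in GF against CON. It was at 10.4 ± 0.318 CPM in GF and 7.60 ± 1.07 CPM in CON (SD, n = 4), and the 4 GF libraries stood above the 4 CON libraries. The log2 fold change was 0.45 (SE 0.13), with an adjusted p of 0.291 in edgeR. Fchsd1, mentioned after its values were seen, lay the other way, at 6.09 ± 0.525 CPM in GF and 8.08 ± 0.860 CPM in CON (SD, n = 4), with a log2 fold change of -0.41 (SE 0.14), an adjusted p of 0.397 in edgeR and no overlap of the groups. In GF against CON 1 of the 11 neighbours was thus apart and higher and 1 apart and lower, where 5.08% of all genes had groups apart. The median of the 11 neighbours was 0.08 (all genes 0.01).

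The beta genes tended to vary together from library to library, apart from any difference between the groups. This was looked for after the values had been seen, and it is given as a description. Each library's deviation from its group's mean log2 CPM was taken for the 21 tested beta genes. Over the 12 libraries, the 210 pairs of beta genes had a median Pearson correlation of 0.41 (from -0.91 to 0.91), and 84.8% of them lay above 0. Pairs of 4338 other genes of the same abundance had a median of 0.0023, with 50.2% above 0. The pairs share libraries, depth and, in part, sequence. Neighbours in the cluster (20 pairs) had a median of 0.34 and pairs more than 10 genes apart (55 pairs) of 0.37.

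CON replicate 2 was the lowest library, with a mean beta deviation of -0.35 on the log2 scale, and CON replicates 3 and 4 were the highest with 0.20 and 0.21. In GF the deviations ran from -0.14 in replicate 1 to 0.16 in replicate 2, and in exGF from -0.20 in GFR4 to 0.16 in GFR1. CON replicate 2 and GFR4, the lowest of their groups, were the libraries that stood apart in striatal markers. The median correlation of the pairs was 0.25 without CON replicate 2 and 0.19 without both CON replicate 2 and GFR4. The gene that followed the others most closely was Pcdhb2 (r = 0.86 with the mean of the other beta genes), followed by Pcdhb19 (0.81) and Pcdhb18 (0.80). Pcdhb7 went the opposite way (r = -0.56), and its lowest pair correlation, -0.91, was with Pcdhb13. Pcdhb20 (0.19) and Pcdhb3 (0.29) followed the others least among the genes with a correlation above 0.

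The mean beta deviation ran closely with the alpha row (Pearson's r = 0.93, Spearman's rho 0.94, 12 libraries), and r was 0.86 without the 2 libraries farthest from the median, which were CON replicate 2 and GFR4. With the gamma row r was 0.14, but this value turned on the processing. After a correction for exon length and GC content it was 0.78, where that with the alpha row was 0.80. With group means taken again after leaving libraries out, r with the gamma row was 0.54 without GFR1 and -0.25 without CON replicate 2. Without CON replicate 2 and GFR4 it was -0.23 in that way, where that with the alpha row was 0.84. Of 22 measures set beside the beta deviation, 7 had r above 0.5 and 4 below -0.5. The highest was the classical cadherins and catenins (0.95), with non-clustered protocadherins at 0.84, neuronal markers at 0.81, intracellular partners at 0.79, promoter choice at 0.77 and excitatory neuronal markers at 0.73. Oligodendrocyte markers stood at -0.54, striatal markers at -0.56, endothelial markers at -0.56 and the share of pairs that overlapped several genes at -0.72. Without the 2 libraries farthest from the median of each measure, the classical cadherins and catenins stood at 0.94, non-clustered protocadherins at 0.73, intracellular partners at 0.75, promoter choice at 0.71 and the share of overlapping pairs at -0.65. In the same way neuronal markers stood at 0.56, excitatory markers at 0.38, oligodendrocyte markers at -0.43, endothelial markers at -0.19 and striatal markers at 0.26, so that the striatal, endothelial and excitatory values rested on the libraries left out. The beta deviation moved with several measures that are not particular to the cluster, and their part in it was not tested.

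**Figure D4:**
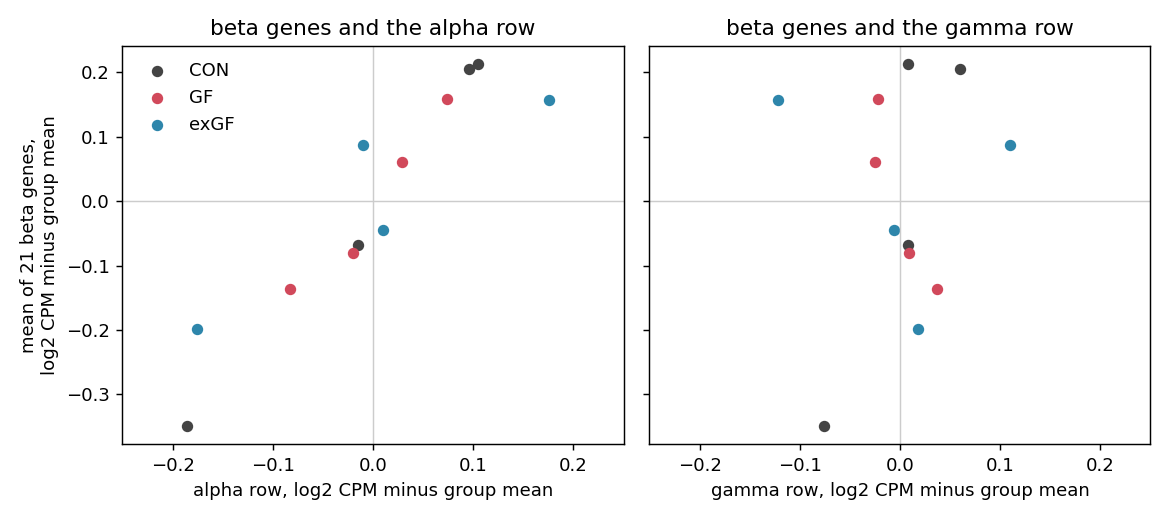
Mean deviation of the 21 tested beta genes from the group mean (vertical axis, log2 CPM) against the same deviation of the alpha row (left) and of the gamma row (right), with a point for each of the 12 libraries coloured by group. The points rise together on the left (r = 0.93) and show little order on the right (r = 0.14), and CON replicate 2 is the lowest point at -0.35.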

How the data were processed

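PolyA-enriched RNA of the PFC was sequenced as paired reads in 4 CON, 4 GF and 4 exGF libraries. The counts were deposited by the authors as raw read pairs per gene with no normalization, after trimming with Trimmomatic 0.32, alignment to GRCm38.p3 with STAR and counting on Ensembl release 78 with HTSeq 0.6.0 without regard to strand. Rows that name no gene (pairs outside genes, 4.57% to 7.31% of a library, in several genes, 1.10% to 1.32%, or aligned to several places) were left out. Symbols, exons and coordinates came from GENCODE M21 (GRCm38), which named 40254 of 41388 genes.

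Each comparison used the libraries of its own groups. Low counts were removed with filterByExpr, libraries were scaled by TMM, and edgeR 4.0.16 (R 4.3.3) gave quasi-likelihood tests with Benjamini-Hochberg adjustment over every gene tested, with calls at adjusted p under 0.1. DESeq2 1.42.0, limma-voom (limma 3.58.1), other scalings and filters, a fit of all libraries, a correction for exon length and GC content, a replicate block and leaving out each library were alternatives. The scripts were tested on simulated counts. Precision at this depth is limited by the spread between pools, which the edgeR intervals include. The floors given for a count of 0 cover counting error only.

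Named were the 4 beta genes with the smallest p in each comparison, the 3 highest and 3 lowest by level per kb, the gamma row and, in each list, any called gene and the gene with the smallest p in GF against CON. The members and lists were chosen with earlier results of these data known.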

Additional observations from a re-analysis of the deposited data

Results flagged for a closer look

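Among the 4 libraries of a group, a library was singled out where its distance to the next one, as a share of the group's range of CPM, was above Dixon's 95% critical value. Of 72 sets of 4 libraries examined (the members and the alpha row in each group), 4 were beyond it. For normally distributed values chance would give 5%, or 3.6 sets. This is a rough guide only, since Pcdhb1 is among the sets with 0 to 3 counts. In exGF all 4 of its counts were 0, which leaves no range to divide by. Pcdhb11 was low in GF replicate 1, the library with the fewest counts, at 2.16 CPM beside 3.70 to 3.91 CPM in the other GF libraries (ratio 0.884). Pcdhb19 was high in GF replicate 2, at 10.1 CPM beside 6.77 to 7.21 CPM (ratio 0.867). Pcdhb12 was high in GFR1, at 6.42 CPM beside 5.17 to 5.23 CPM (ratio 0.958), and Pcdhb16 was low in GFR4, at 3.85 CPM beside 4.93 to 5.09 CPM (ratio 0.868). None of these 4 genes was called in any comparison, with or without that library. No difference between comparisons was tested, and no value came from data outside the count table.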

How the results depend on the processing

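No member was called under any of the 15 alternatives in each of GF against CON and exGF against CON or the 14 in exGF against GF, and the smallest adjusted p of a member lay between 0.483 and 0.768, at 0.677 or above and between 0.254 and 0.999. Leaving out each library in turn moved the beta median from -0.13 to 0.12 in GF against CON, from -0.11 to 0.04 in exGF against CON and from -0.11 to 0.04 in exGF against GF. The gamma row's fold change in exGF against GF was -0.0043 after the correction for exon length and GC content, and the alpha row's ran from -0.10 without GFR1 to 0.014, with the sign changed, without GFR4. Cdh13 was called in GF against CON with no filter on low counts (-0.41, adjusted p 0.0861). Calls over all genes depended on the tool: GF against CON had 39 in edgeR, 194 in DESeq2, 221 with no filter and 122 with the length and GC correction, exGF against CON 11, 55, 48 and 17, and exGF against GF 0, 17, 32 and 1. With the replicate number as a block, GF against CON had 0 members called, a beta median of -0.02, a gamma row value of 0.0069 and 51 genes called. The sample labels do not say whether the numbers pair the samples. Same-numbered CON and GF libraries deviated with correlations of -0.04, -0.08, -0.05 and 0.05, beside -0.10 to 0.13 for libraries of different numbers. These values show no sign of a pairing but cannot exclude one. No paired analysis was possible because the exGF column numbers are not tied to samples in the other 2 comparisons. A difference in Pcdhb1 was not detectable at 0 to 3 counts.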
